A study of Mus musculus with 18 samples.

Results

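The 10 core and output genes of the circadian clock (Per1, Per2, Per3, Cry1, Cry2, Arntl, Clock, Nr1d1, Nr1d2 and Dbp) were followed by gene symbol in RNA from mouse sciatic dorsal root ganglia, the clusters of sensory neurons whose axons run in the sciatic nerve. All 10 were found among 15730 genes with read counts, in 18 samples. The C57BL/6 mice were 6 to 8 weeks old, ganglia (L4 to L6) were taken 24 hours after surgery, and each sample pooled the ganglia of 2 mice. The 6 groups of 3 samples were sciatic nerve injury in saline (SNA_Saline), its sham operation in saline (Sham_Saline), sciatic nerve injury with 30 mM N-acetyl-cysteine, an antioxidant (SNA_NAC), sham operation with 13 mM hydrogen peroxide (Sham_H202, as the labels spell it), spinal cord dorsal column injury (DCA), and laminectomy, the opening of the spine that exposes the cord (LAM). Every group had surgery and no group was unoperated. The question was whether groups or single samples differed in the phase of the clock when tissue was collected; the hour of collection is not given in the sources used here.

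In the mammalian clock the proteins of Arntl (also called Bmal1) and Clock pair and switch on genes that carry an E-box in their promoter, among them the Per, Cry, Nr1d and Dbp genes. The PER and CRY proteins then repress that pair. The NR1D (REV-ERB) receptors repress Arntl through a DNA element that ROR receptors use to activate it, so that Arntl transcripts run roughly opposite in phase to those of Dbp, Nr1d1 and the Per genes. DBP with its relatives TEF and HLF carries the rhythm to output genes through the D-box, a site where NFIL3 represses. Peripheral tissues, sensory ganglia among them, hold such clocks in their own cells. Per1 is also switched on outside this loop by glucocorticoids and by cAMP signalling.

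Sequences are printed below for 4 genes whose promoter window held one of these elements. In windows from 250 bases before to 50 bases after each RefSeq transcription start (GRCm38.p6), 9 of the 10 clock genes had a sequence, in 13 windows; Per2 had none. Both strands were searched for the E-box CACGTG, the D-box TTATGTAA, TTACATAA or TTACGTAA, the cAMP element TGACGTCA and the element that ROR and REV-ERB receptors bind (RORE). Among 32851 such windows of the mouse genome, 7.15% held the E-box, 1.06% the D-box, 1.79% the cAMP element and 0.219% the RORE. Arntl held the RORE in 1 of its 2 windows, beginning 27 bases after that window's start site. Per3 held the D-box at 2 positions. Per1 and Cry1 held an E-box and were the only 2 of the 10 clock genes to do so. The windows of Cry2, Clock, Nr1d1, Nr1d2 and Dbp held none of the elements searched. Among the related genes, Ciart held 3 E-boxes and Bhlhe41 held 1, and Tef held 1 in each of its 2 windows. No 2 matches overlapped, and a match in these letters is a description and not a measured binding site. The sequences below run 5′ to 3′ on the strand of the gene, with the matched element in capitals.
Arntl (chr7:113207261-113207560, plus strand): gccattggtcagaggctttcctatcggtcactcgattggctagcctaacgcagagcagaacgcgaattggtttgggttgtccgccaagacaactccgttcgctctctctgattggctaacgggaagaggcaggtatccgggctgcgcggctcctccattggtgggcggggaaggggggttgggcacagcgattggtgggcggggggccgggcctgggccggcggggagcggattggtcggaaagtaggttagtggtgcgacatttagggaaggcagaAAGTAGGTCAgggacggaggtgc
Per1 (chr11:69098699-69098998, plus strand): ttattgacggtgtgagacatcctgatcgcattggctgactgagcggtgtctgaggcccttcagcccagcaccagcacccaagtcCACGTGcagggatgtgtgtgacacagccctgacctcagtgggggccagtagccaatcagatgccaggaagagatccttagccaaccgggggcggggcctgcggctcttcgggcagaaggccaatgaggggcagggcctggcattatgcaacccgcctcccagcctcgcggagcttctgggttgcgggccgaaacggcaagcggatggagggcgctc
Ciart (chr3:95882179-95882478, minus strand): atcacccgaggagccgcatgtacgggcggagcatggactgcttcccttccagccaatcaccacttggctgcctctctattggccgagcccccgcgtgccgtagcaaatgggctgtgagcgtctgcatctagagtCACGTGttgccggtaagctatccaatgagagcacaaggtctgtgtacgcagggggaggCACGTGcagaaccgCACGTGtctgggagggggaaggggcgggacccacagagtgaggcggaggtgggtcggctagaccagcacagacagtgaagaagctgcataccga
Bhlhe41 (chr6:145865371-145865670, minus strand): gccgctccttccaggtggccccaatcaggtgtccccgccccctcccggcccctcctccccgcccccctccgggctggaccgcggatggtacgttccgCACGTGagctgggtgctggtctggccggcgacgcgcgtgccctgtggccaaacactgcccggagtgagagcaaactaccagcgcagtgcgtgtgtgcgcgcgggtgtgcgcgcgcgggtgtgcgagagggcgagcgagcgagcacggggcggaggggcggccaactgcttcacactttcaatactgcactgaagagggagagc

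Total counts per library ran from 6472476 to 42435331, and the clock genes had mean counts from 72.9 (Arntl, 18 to 209 counts) to 1481 (Nr1d2), so counting error weighs most on Arntl. All 10 neuron markers were present in every library, with summed values of 14853 to 21954 CPM (read counts scaled to a common library size, after TMM). The injury gene Atf3 was at 420 to 462 CPM in SNA_Saline and 12.2 to 16.9 in LAM. In all, 3 libraries stood apart. Sham_Saline 2 had the highest slope of expression on the GC share of transcripts (0.431) and Sham_H202 3 the lowest (-0.219). Sham_Saline 2 held the highest of 18 values for Per1, Cry2 and Nr1d1 and the lowest for Clock and Nr1d2, and it also had the largest sum of 7 skeletal muscle markers, 1394 CPM against 7.26 to 562 elsewhere. The GC share of the longest transcript was 59.4% for Per1, 55.6% for Cry2 and 56.8% for Nr1d1. It was 40.9% for Clock and 41.8% for Nr1d2, and the median over genes in the table was 49.6%. Dbp, at 61.6%, was highest in LAM 2. Sham_H202 3 held the highest value for Arntl and the lowest for Cry2 and Nr1d1. Without the third library, Sham_Saline 1, the number of genes called between SNA_NAC and Sham_Saline went from 522 to 5861. The part that GC share, muscle RNA and these libraries have in the clock gene values was not tested. With offsets for the GC share and length of each gene in the fit, 20 of the 80 values of the 10 genes in 8 contrasts changed sign (6 each for Per1 and Cry2, 3 each for Clock and Dbp, and 2 for Per2), of which 1 had an unadjusted p under 0.05 without the offsets. In ganglia as a whole, fewer cells of a type and less RNA per cell cannot be told apart.

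Compared per transcript length, as the authors' FPKM, the order of the 10 genes was led by Nr1d2 and Cry2 and closed by the Per genes and Arntl. The median FPKM over 18 libraries was 16.4 for Nr1d2, 11.9 for Cry2, 7.35 for Clock, 5.24 for Nr1d1, 3.92 for Dbp, 3.76 for Cry1, 2.80 for Per1, 1.37 for Arntl, 1.06 for Per3 and 1.05 for Per2. Cry2 lay above Clock in 17 of 18 libraries, and Cry1 above Per1 and Per1 above Arntl in 16 each. Dbp lay above Cry1 and Per3 above Per2 in only 11 libraries each, and Arntl above Per3 in 12, so those neighbours were not separated beyond the spread of the libraries.

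**Figure D1:**
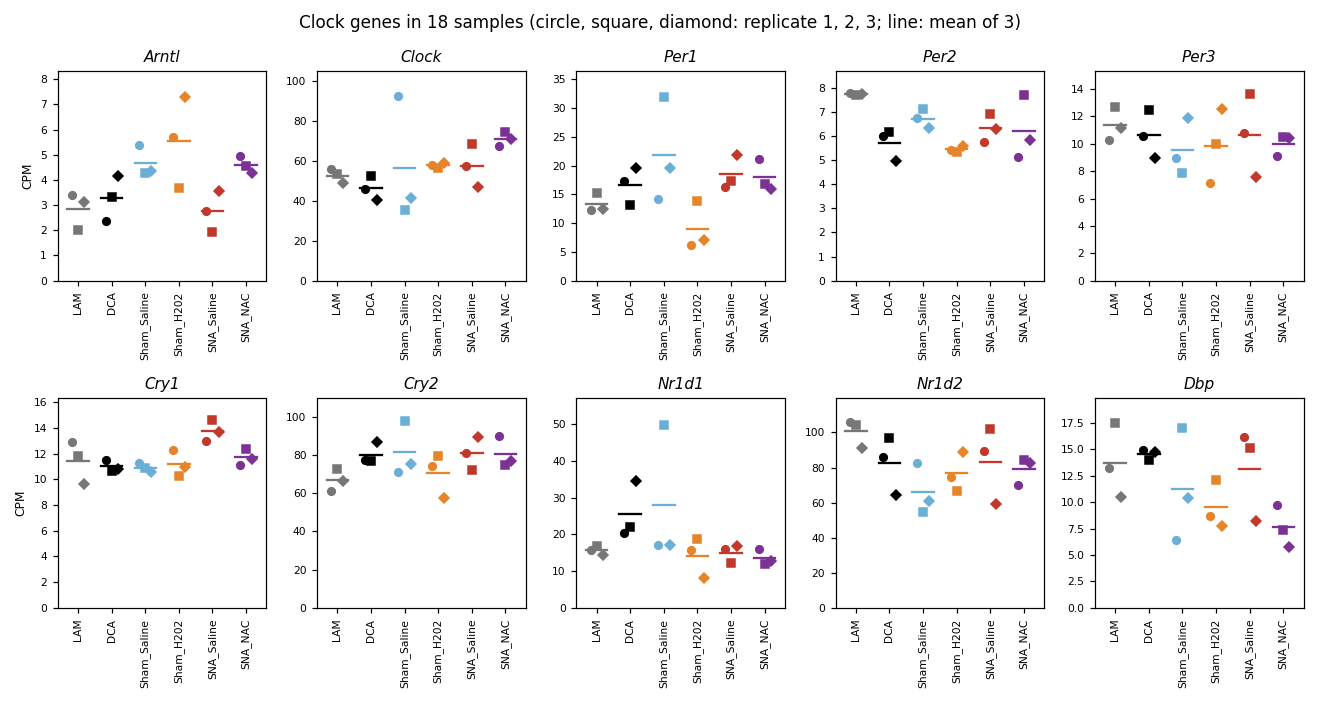
Level of each clock gene in every library, in CPM on a linear axis from 0, by group. Symbols are the 3 replicates and the line is their mean. Nr1d1 and Per1 were highest in replicate 2 of Sham_Saline (49.8 and 31.9 CPM), and Clock was highest in replicate 1 of that group (92.7 CPM).

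None of the 10 clock genes passed an adjusted p of 0.05 (edgeR quasi-likelihood test, Benjamini-Hochberg over all 15730 genes) in any of 8 contrasts, in a test of any difference among the 6 groups, or in a test of any difference among the 3 sequencing lanes. Among the 6 groups as a whole, 3.94% of the measured genes passed and 17.8% reached the unadjusted threshold of 0.05, as did 3 of the 10 clock genes (Per1, Arntl and Nr1d1). DESeq2 called those 3 genes in the same test, where it called 1384 of all genes. For SNA_Saline against Sham_Saline 2.73% of all genes passed the adjusted threshold, 22.5% the unadjusted one, and 19.1% had groups that did not overlap; the clock genes had 3 of 10 at the unadjusted threshold and 3 of 10 without overlap. In Sham_H202 against Sham_Saline no gene of the table passed with edgeR and 4 passed with DESeq2, while 9.15% of genes had an unadjusted p under 0.05 and 5.43% did not overlap, against 2 of 10 clock genes on each count. In DCA against LAM the same shares were 0, 5.04% and 21.7%, with 1 clock gene at the unadjusted threshold and 3 without overlap. No test of the list as a whole was made.

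The median log2 fold change of the 10 genes was 0.00 in SNA_Saline against Sham_Saline, where 5 were higher and 5 lower, and the median over all genes was -0.03. With the offsets 7 were higher and 3 lower. Their median absolute log2 fold change was 0.23 there, against 0.25 for all genes, and in DCA against LAM it was 0.24 against 0.18. Among replicates of a group the clock genes differed widely in spread. The pooled replicate SD of log2 CPM was 0.50 for Nr1d1, 0.44 for Dbp, 0.39 for Per1 and 0.36 for Arntl, which lie at the 91.1, 86.8, 81.4 and 76.9 percentiles of all genes. At the other end Cry1 had an SD of 0.12 (percentile 9.42) and Per2 of 0.15, where the median gene had 0.24.

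Arntl (ENSMUSG00000055116, chr7:113207465-113314126), the partner of Clock in the activating pair, was lowest in SNA_Saline, LAM and DCA; positions here and for the other clock genes are of the whole gene on mm10. Its values were 2.77, 1.95 and 3.56 CPM in SNA_Saline and 5.39, 4.30 and 4.34 CPM in Sham_Saline, so that the groups did not overlap. The log2 fold change between them was -0.74 (SE 0.28, edgeR unadjusted p = 0.0187, adjusted p = 0.165). With N-acetyl-cysteine at the injury the values were 4.95, 4.57 and 4.27 CPM, all above the 3 samples injured in saline. SNA_NAC lay 0.72 above SNA_Saline on the log2 scale (95% interval 0.12 to 1.31, edgeR unadjusted p = 0.021, adjusted p = 1.00). In that contrast no gene of the table passed with edgeR or with DESeq2, 2% of all genes had an unadjusted p under 0.05 and 14.9% did not overlap, against 2 of 10 clock genes on each count. SNA_NAC and Sham_Saline differed by -0.02 (95% interval -0.58 to 0.53).

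The spinal groups had Arntl at 3.42, 2.01 and 3.12 CPM in LAM and 2.38, 3.33 and 4.15 CPM in DCA, which overlap. Sham_H202 held the widest spread, 5.69, 3.67 and 7.31 CPM, and the last of these is the library with the lowest GC slope. The sham operation in saline lay above laminectomy in all 3 against 3 samples, by 0.73 (SE 0.28, edgeR adjusted p = 0.114). In that contrast of the surgical controls 0.0699% of all genes passed the adjusted threshold, 30.3% the unadjusted one and 30.6% did not overlap, against 0, 4 and 4 of the 10 clock genes. With the replicate number, which equals the lane, as a block, the calls there went from 11 genes to 6, with 0 clock genes among them. Over the 4 sciatic groups against the 2 spinal groups Arntl was 0.48 higher (SE 0.17, edgeR unadjusted p = 0.0136, adjusted p = 0.172), a contrast in which 3.66% of the table passed and 14.7% reached the unadjusted threshold, against 0 and 3 of 10 clock genes (Arntl, Nr1d2 and Dbp). Clock (ENSMUSG00000029238, chr5:76209868-76304792) itself was at 35.6 to 92.7 CPM over the 18 samples and reached an unadjusted p under 0.05 in none of the 8 contrasts. Both ends of that range lay in Sham_Saline, with Sham_Saline 1 at 92.7 CPM beside Sham_Saline 2 at 35.6 and Sham_Saline 3 at 41.6. Clock was 0.32 higher in SNA_NAC than in Sham_Saline and 0.02 higher in SNA_Saline than in Sham_Saline, and with the offsets these values were 0.07 and -0.03. Without Sham_Saline 1 edgeR called it in both (0.88, adjusted p = 0.00114, and 0.57, adjusted p = 0.0236). Of all 15730 genes that setting called 5861 in the first of these contrasts and 2548 in the second. Sham_Saline against LAM gave 0.11 for Clock, and without Sham_Saline 1 a call in the other direction (-0.45, edgeR adjusted p = 0.0305). Without that library 5009 of all genes were called there. In the sciatic against the spinal groups Clock was 0.30 higher (edgeR adjusted p = 0.408), and 0.20 with the offsets, with a call (adjusted p = 0.0436). The offsets called 1408 of 15648 genes in that contrast.

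Per1 (ENSMUSG00000020893, chr11:69095217-69109960), the period gene that also responds to glucocorticoids, gave the smallest p of any clock gene. It was at 6.21, 13.8 and 6.99 CPM in Sham_H202 and at 14.3, 31.9 and 19.5 CPM in Sham_Saline. The groups did not overlap, although the highest sample under peroxide came within 0.5 CPM of the lowest in saline. The log2 fold change was -1.22 (SE 0.30, 95% interval -1.85 to -0.59, edgeR unadjusted p = 0.000778, adjusted p = 0.449). Without Sham_Saline 2 it was -0.83 and with offsets for GC share and length -0.73. The other groups lay between these, at 16.3, 17.4 and 21.9 CPM in SNA_Saline, 21.2, 16.8 and 16.0 in SNA_NAC, 17.3, 13.1 and 19.5 in DCA, and 12.2, 15.2 and 12.5 in LAM. Per1 was 0.72 higher in Sham_Saline than in LAM (edgeR unadjusted p = 0.0229, adjusted p = 0.122). That value was -0.01 with the offsets, 0.34 without Sham_Saline 2 and 0.95 without Sham_Saline 1 (edgeR adjusted p = 0.0257). Without Sham_Saline 1 the contrast had 5009 of all genes called.

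Per2 (ENSMUSG00000055866, chr1:91415982-91459324) had a narrow range in LAM, at 7.76, 7.70 and 7.72 CPM, and was at 5.99, 6.15 and 4.96 CPM in DCA. It ran widest in SNA_NAC, at 5.12, 7.70 and 5.81 CPM, and was at 5.74, 6.92 and 6.27 CPM in SNA_Saline. After dorsal column injury it lay 0.44 lower on the log2 scale (SE 0.15, 95% interval -0.77 to -0.12, edgeR unadjusted p = 0.0101, adjusted p = 0.624), without overlap. Under peroxide it was at 5.43, 5.34 and 5.56 CPM, below the 6.72, 7.12 and 6.31 CPM of Sham_Saline, with a log2 fold change of -0.31 (95% interval -0.65 to 0.03), which was -0.06 with the offsets. Per3 (ENSMUSG00000028957, chr4:151003652-151044665) ran from 7.11 to 13.6 CPM, and its groups overlapped in each of the 7 contrasts of group values. In the test among the 6 groups it gave an edgeR unadjusted p of 0.869, the largest of the 10.

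Cry1 (ENSMUSG00000020038, chr10:85131700-85185064), which encodes a repressor of the Arntl and Clock pair, was the steadiest of the 10 genes. It was at 13.0, 14.6 and 13.7 CPM in SNA_Saline and at 11.2, 10.9 and 10.6 CPM in Sham_Saline. The injured samples were all higher, by 0.33 (SE 0.12, edgeR unadjusted p = 0.0159, adjusted p = 0.156). With N-acetyl-cysteine it was at 11.1, 12.4 and 11.6 CPM, each below the 3 samples injured in saline, a difference of -0.23 (95% interval -0.49 to 0.02). Cry2 (ENSMUSG00000068742, chr2:92403646-92434043) ran from 57.4 to 97.7 CPM and differed by -0.01 between SNA_Saline and Sham_Saline (95% interval -0.31 to 0.29). With offsets for GC share and length that difference became 0.35 (edgeR adjusted p = 0.00783), in a setting where 1083 of 15648 genes passed. Sham_Saline 2 held the highest Cry2 value of the series. Reads that fall where Cry2 and a transcript on the other strand, D930015M05Rik, overlap (295 of 6320 exon bases) could not be assigned here, as the use of strand in counting is not given in the sources used here.

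Nr1d1 (ENSMUSG00000020889, chr11:98767932-98775333), the REV-ERB receptor that represses Arntl, varied most among replicates. Its values were 17.02, 49.8 and 17.1 CPM in Sham_Saline, 16.0, 12.2 and 16.8 in SNA_Saline, and 16.0, 12.1 and 12.7 in SNA_NAC. The middle Sham_Saline library, the one with the highest GC slope, was nearly 3 times the level of the other 2. Nr1d1 was lower in SNA_Saline by a log2 fold change of -0.90 (SE 0.36, edgeR unadjusted p = 0.0241, adjusted p = 0.177). This was -0.18 without that library and -1.16, with a call (adjusted p = 0.0436), without Sham_Saline 1, where 2548 of all genes were called. SNA_NAC against Sham_Saline gave -1.04 (edgeR unadjusted p = 0.00988, adjusted p = 0.105) and -0.32 without Sham_Saline 2. In that contrast 3.32% of all genes passed the adjusted threshold, 27.6% the unadjusted one and 21.2% did not overlap, against 0, 1 and 1 of the 10 clock genes. DESeq2 called Nr1d1 there (adjusted p = 0.0424), as did edgeR without Sham_Saline 1 (-1.30, adjusted p = 0.0131). These settings called 1222 and 5861 of all genes.

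In the other groups Nr1d1 was at 15.6, 18.7 and 8.10 CPM in Sham_H202, 15.7, 16.9 and 14.3 in LAM, and 20.3, 22.03 and 34.5 in DCA. Sham_H202 lay -0.96 from Sham_Saline, with overlap (edgeR unadjusted p = 0.0185, adjusted p = 0.449), and 0.02 from it when Sham_Saline 2 and Sham_H202 3 were both left out. The DCA samples were all above the LAM samples, by 0.72 (95% interval -0.04 to 1.48, edgeR unadjusted p = 0.0628, adjusted p = 0.624). Its change after sciatic injury and its change after dorsal column injury therefore had opposite signs, and the difference between them was -1.62 (SE 0.51, edgeR unadjusted p = 0.00578, adjusted p = 0.0867). For that difference 1.61% of all genes passed the adjusted threshold and 31.4% the unadjusted one, against 0 and 4 of the 10 clock genes (Cry1, Arntl, Nr1d1 and Nr1d2). Without Sham_Saline 2 it was -0.90. With the replicate block the calls over all genes for this difference went from 254 to 118, with 0 clock genes among them. The Nr1d1 difference passed with DESeq2 (adjusted p = 0.0293) and with edgeR without Sham_Saline 1 (-1.88, adjusted p = 0.0207). Over all genes these settings called 1638 and 4600. With the offsets the Nr1d1 values against Sham_Saline were -0.43 in SNA_Saline, -0.50 in SNA_NAC and -0.53 in Sham_H202. DCA was then 0.40 above LAM, and the difference between the injuries was -0.82 (edgeR adjusted p = 0.113). Part of Nr1d1 (263 of 3077 exon bases) overlaps the thyroid receptor gene Thra on the other strand, and Thra too was highest in Sham_Saline 2 (255 CPM).

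Nr1d2 (ENSMUSG00000021775, chr14:18204054-18239127), the second REV-ERB receptor, was the most abundant of the 10 and moved apart from Nr1d1. It was at 106, 104 and 91.3 CPM in LAM and at 82.8, 55.0 and 60.8 CPM in Sham_Saline, without overlap. The log2 fold change of Sham_Saline against LAM was -0.60 (SE 0.20, edgeR unadjusted p = 0.00708, adjusted p = 0.104). It passed with DESeq2 (adjusted p = 0.0479) and with edgeR without Sham_Saline 1 (-0.80, adjusted p = 0.0236), settings that called 1083 and 5009 of all genes. With the offsets it was -0.40 and did not pass (edgeR adjusted p = 0.11). Nr1d1 was higher in the same contrast, by 0.85 (edgeR adjusted p = 0.134), so the paralogs had opposite signs between the surgical controls. Without Sham_Saline 2 the Nr1d1 value there was 0.13, with the offsets it was 0.25, and without Sham_Saline 1 it was 1.11 (edgeR adjusted p = 0.0323). In the sciatic against the spinal groups Nr1d2 was at -0.26 (edgeR adjusted p = 0.316). With the offsets it passed (adjusted p = 0.0155), in a setting that called 1408 of 15648 genes. The remaining groups had Nr1d2 at 59.4 to 102 CPM.

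Dbp (ENSMUSG00000059824, chr7:45705088-45710203), the output activator, varied widely between samples of the same group. Of its variance in log2 CPM, 45.8% lay between groups, against a median of 37.7% over all genes. Dbp was at 6.39, 16.97 and 10.4 CPM in Sham_Saline, 16.2, 15.1 and 8.20 in SNA_Saline, and 13.2, 17.5 and 10.5 in LAM. Only DCA, at 15.0, 14.0 and 14.8 CPM, had a narrow range. Sham_H202 was at 8.66, 12.1 and 7.79 CPM and SNA_NAC at 9.77, 7.32 and 5.72 CPM, the lowest group mean. Dbp was 0.78 lower in SNA_NAC than in SNA_Saline (95% interval -1.46 to -0.09, edgeR unadjusted p = 0.0282, adjusted p = 1.00), and the groups overlapped. Between SNA_Saline and Sham_Saline the difference was 0.22 (95% interval -0.46 to 0.90), and with the offsets it was 0.94 (edgeR adjusted p = 0.0708). With the replicate block added to the offsets it was 0.89, with a call (edgeR adjusted p = 0.0352), beside 963 of all genes. That setting also called Dbp among the 6 groups (adjusted p = 0.0251) and in the sciatic against the spinal groups (-0.57, adjusted p = 0.0186). Over all genes it called 1355 and 1294 there. Without offsets or block the sciatic against spinal value was -0.46 (edgeR adjusted p = 0.251). SNA_NAC against Sham_Saline gave -0.56 (95% interval -1.24 to 0.12), -0.84 without Sham_Saline 1 (edgeR adjusted p = 0.0375) and 0.19, the opposite sign, with the offsets. Without Sham_Saline 1 that contrast had 5861 of all genes called. Sham_Saline against LAM gave -0.28 for Dbp, and -1.08 with the offsets (edgeR adjusted p = 0.11). Dbp shares 539 of 2993 exon bases with Sphk2 on the other strand, which was also highest in Sham_Saline 2 (60.6 CPM).

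**Figure D2:**
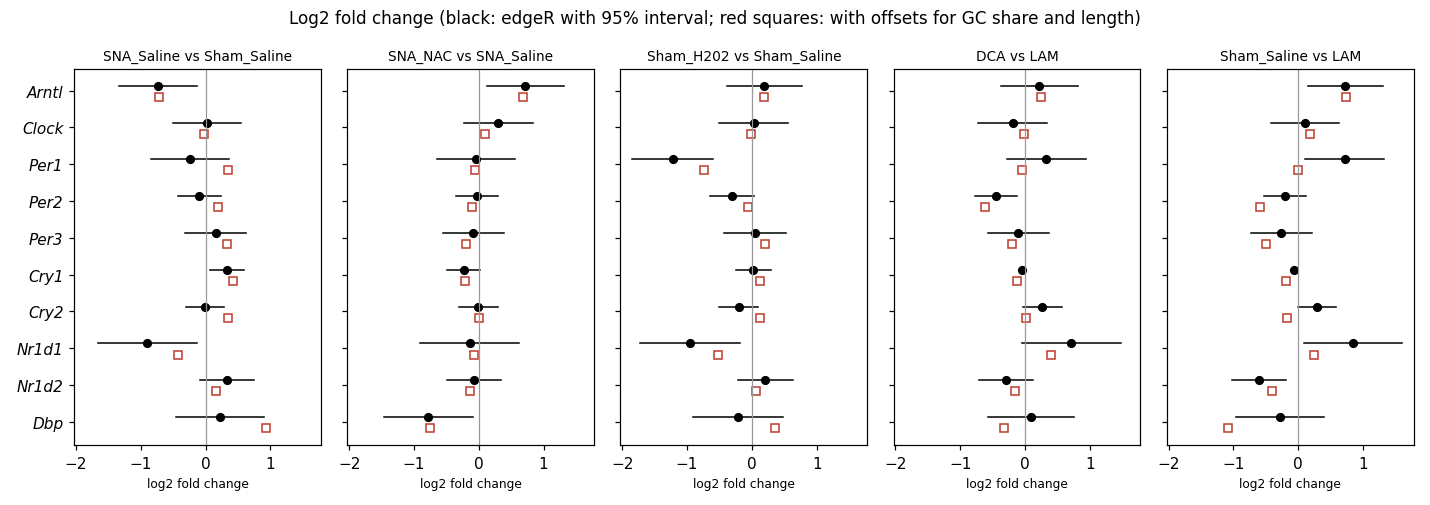
Log2 fold change of each clock gene in 5 contrasts, with the first-named group over the second. Black points with lines are edgeR values with 95% intervals (no interval is drawn for Cry1 in the last 2 panels, where the test gives none), and red squares are values with offsets for GC share and length. Per1 under peroxide lies farthest from 0 (-1.22), and its square lies at -0.73.

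Because Arntl and Dbp run in opposite phase in a working clock, their relation across samples was used as a view of phase that needs no group labels. Across 18 samples log2 CPM of Arntl and Dbp had a Pearson r of -0.68 (2-sided permutation p = 0.00213, adjusted p = 0.0192 over 9 relations of Arntl with the other clock genes) and a Spearman rho of -0.70 (permutation p = 0.00151, adjusted p = 0.0136). The permutations shuffled all 18 samples without regard to group, so differences between groups enter these p-values. Of the variance in log2 CPM, 62.6% lay between groups for Arntl and 45.8% for Dbp. Without the 2 samples farthest from the Arntl median r was -0.60. For deviations from the group means it was -0.55, which was not tested. After taking out the GC slope of each library r was -0.74. Within lanes of 6 samples r was -0.91, -0.57 and -0.26. The sign was the same in each lane, and the size differed. Leaving out replicate 2 of LAM gave -0.63 with an adjusted permutation p of 0.0569. None of the other 8 relations passed; Nr1d2 came closest by rank (rho -0.53, permutation p = 0.027, adjusted p = 0.121), and Per1 and Nr1d1, which shared a high value in Sham_Saline 2, gave r of -0.33 and -0.11.

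**Figure D3:**
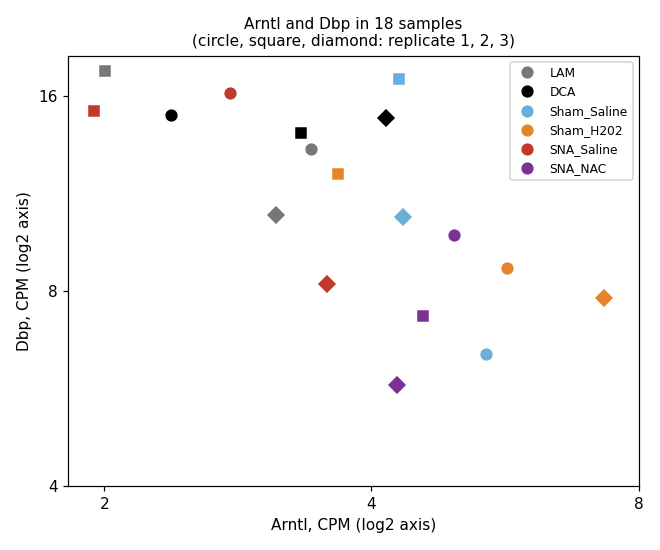
Dbp against Arntl in every library, in CPM on log2 axes, coloured by group, with symbols for replicates. Points run from high Dbp and low Arntl (LAM replicate 2) to low Dbp and high Arntl (Sham_H202 replicate 3), with r = -0.68 over 18 libraries.

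The log2 ratio of Dbp to Arntl, given here as a description, spanned 0.09 (Sham_H202 3) to 3.06 (LAM 2). It was 2.23 ± 0.72 in LAM (mean ± SD, n = 3, as in the other groups), 2.19 ± 0.90 in SNA_Saline and 2.15 ± 0.41 in DCA. In the other 3 groups it was lower, at 1.14 ± 0.86 in Sham_Saline, 0.79 ± 0.82 in Sham_H202 and 0.68 ± 0.28 in SNA_NAC. The 3 SNA_NAC samples (0.41 to 0.96) lay below all samples of SNA_Saline (1.18 to 2.89), LAM (1.71 to 3.06) and DCA (1.81 to 2.60). Sham_Saline ran from 0.24 to 1.96. The log2 ratios of Nr1d2 and of Per3 to Arntl did not separate SNA_NAC from SNA_Saline or DCA. For Nr1d2, SNA_Saline 3 (4.02) and DCA 3 (3.92) lay below SNA_NAC 2 (4.17) and SNA_NAC 3 (4.24). For Per3, SNA_Saline 3 (1.06) and DCA 3 (1.09) lay below SNA_NAC 2 (1.18) and SNA_NAC 3 (1.26). Both ratios were lower in all SNA_NAC samples than in all LAM samples. Within groups the sample highest in Dbp was the one lowest in Arntl in 4 of 6 groups, and the sample lowest in Dbp was the one highest in Arntl in 3 of 6. For the Dbp to Arntl ratio the SD between replicates of a group ran from 0.28 to 0.90. The group means ran from 0.68 to 2.23.

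Replicate numbers equal the sequencing lane in the labels, so the 3 lanes hold 1 sample of each group. Mean Dbp was 11.5, 13.8 and 9.56 CPM in lanes 1, 2 and 3, and lane 3 held the lowest sample in 4 of 6 groups. Mean Arntl was 4.10, 3.30 and 4.46 CPM, and lane 2 held the lowest sample in 4 of 6 groups. In the test of any lane difference 1 of all genes passed (0.00636%) with edgeR and 14 with DESeq2, 1.65% had an unadjusted p under 0.05, and of the clock genes Dbp alone did (edgeR unadjusted p = 0.0466, adjusted p = 1.00). DESeq2 called no clock gene there.

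Of 22 symbols listed for related clock genes, 20 were in the table (no row carried the symbol Rorb or Gm129). Among these, 2 repressors carried the clear changes. Bhlhe41 encodes DEC2, which represses from E-boxes, and Nfil3 encodes a repressor at the D-box sites that DBP uses. Bhlhe41 was at 118, 120 and 112 CPM in SNA_Saline and at 58.2, 54.4 and 60.3 CPM in Sham_Saline, and it rose by 1.02 on the log2 scale (SE 0.12, edgeR adjusted p = 0.000122). With N-acetyl-cysteine it was at 107, 121 and 107 CPM, 0.95 above the same sham samples (edgeR adjusted p = 0.000206) and -0.06 from injury in saline (95% interval -0.32 to 0.19). Nfil3 rose by 1.05 after injury in saline (SE 0.17, edgeR adjusted p = 0.00155), from 7.53, 10.4 and 9.09 CPM to 17.7, 17.6 and 20.7 CPM. It was at 17.6, 18.1 and 18.2 CPM in SNA_NAC, 0.99 above sham (edgeR adjusted p = 0.00219). No other related gene was called in SNA_Saline against Sham_Saline, where 2 of 20 (10%) were higher and none lower, against 2.16% of all genes higher. The same sham libraries serve both injury contrasts.

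After dorsal column injury neither gene was called. Bhlhe41 was at 53.0, 55.9 and 37.8 CPM in DCA and 59.8, 59.5 and 55.9 CPM in LAM, a difference of -0.26 (95% interval -0.52 to 0.00). Its change after sciatic injury exceeded that after dorsal column injury by 1.28 (SE 0.17, edgeR adjusted p = 0.00101). Nfil3 was at 4.90 to 7.13 CPM in DCA and 4.77 to 5.81 in LAM, and the difference between injuries, 0.94, did not pass (edgeR adjusted p = 0.0599). Across all sciatic against spinal groups Nfil3 was 1.18 higher (edgeR adjusted p = 4.05e-06) and Bhlhe41 0.66 higher (edgeR adjusted p = 4.68e-05). The sciatic groups include SNA_Saline and SNA_NAC, so this contrast joins the site of surgery with sciatic nerve injury. Between the surgical controls, Sham_Saline against LAM, Bhlhe41 differed by -0.02 and Nfil3 by 0.75 (edgeR adjusted p = 0.929 and 0.104). Rora, which activates Arntl through the RORE, was called only in SNA_NAC against Sham_Saline (0.74, edgeR adjusted p = 0.0232), with 24.7, 29.2 and 28.7 CPM against 21.02, 13.6 and 14.7, and it lost the call without Sham_Saline 2 (0.62, adjusted p = 0.135), Sham_Saline 3, SNA_NAC 2 or SNA_NAC 3. Beyond single samples left out, the call held in 10 of 12 alternatives, with values from 0.39 to 0.75.

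Ciart, a repressor of the Arntl and Clock pair with 3 E-boxes in its promoter, was lower in the sciatic groups than in the spinal groups by 0.62 (SE 0.14, edgeR adjusted p = 0.0141). It was at 4.45, 4.34 and 3.53 CPM in LAM and 4.98, 3.67 and 2.94 in DCA, against 1.70 to 3.70 CPM in the 12 sciatic samples. Leaving out replicate 1 of DCA gave -0.51 (edgeR adjusted p = 0.0672). In the test of any lane difference Ciart had an edgeR unadjusted p of 0.0135 and did not pass after adjustment. Usp2, a deubiquitinase with clock proteins among its targets, was at 4.66, 9.37 and 5.24 CPM in Sham_H202 and 8.96, 13.5 and 12.4 in Sham_Saline (log2 fold change -0.79, edgeR unadjusted p = 0.00549, adjusted p = 0.449). Tef, a relative of Dbp, differed little over the series (91.7 to 123 CPM) and was 0.15 lower in the sciatic groups (edgeR unadjusted p = 0.0203, adjusted p = 0.21). Hlf (10.5 to 21.1 CPM), Npas2, a relative of Clock (1.36 to 3.07 CPM), Bhlhe40 (25.2 to 30.9 CPM) and Nampt, of NAD salvage (56.1 to 99.6 CPM), were called in no contrast.

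**Figure D4:**
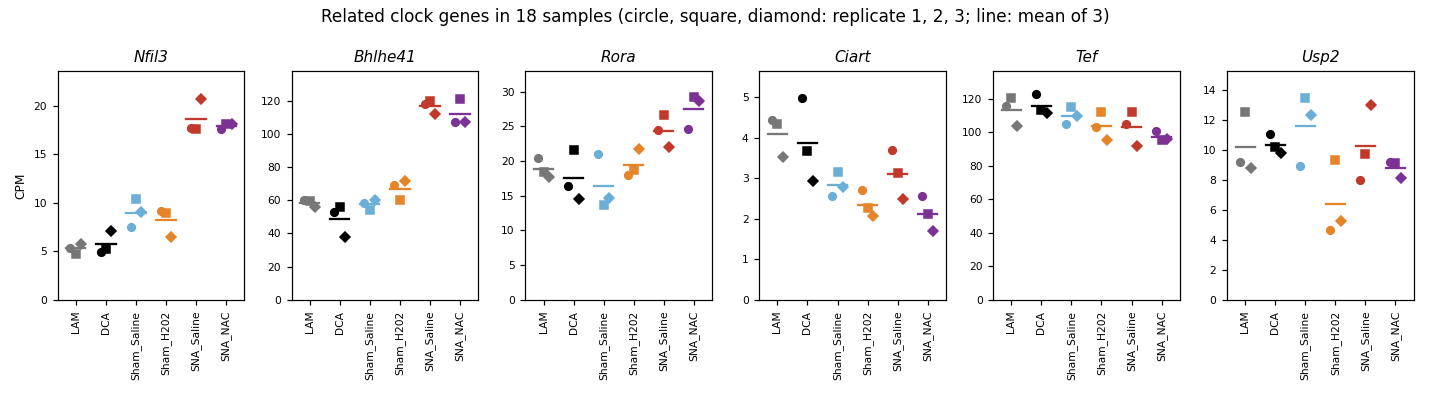
Level of 6 related clock genes in every library, in CPM on a linear axis from 0, by group, with symbols for the 3 replicates and a line for their mean. Nfil3 and Bhlhe41 were higher in both sciatic injury groups than in any other group, with Bhlhe41 at 107 to 121 CPM there against 37.8 to 71.7 elsewhere.

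Another 2 lists were read beside Per1, which answers to hormones and to cAMP. Of 15 glucocorticoid-responsive genes, none was called in Sham_H202 against Sham_Saline with edgeR, and 6 of 15 (40%) were lower at an unadjusted p under 0.05, against 5.85% of all genes. Fkbp5, a chaperone induced by glucocorticoids, was at 41.9, 47.6 and 37.2 CPM under peroxide and 73.4, 97.7 and 54.4 CPM in saline (log2 fold change -0.83, edgeR unadjusted p = 0.00082, adjusted p = 0.449). Sgk1 was at 26.0, 41.9 and 48.2 CPM against 50.2, 57.1 and 61.9 (-0.54, edgeR adjusted p = 0.449), also without overlap. Zbtb16 was at 1.39 ± 0.24 against 4.77 ± 3.31 CPM (SD, n = 3) and Tsc22d3 at 235 ± 41.5 against 284 ± 45.3, and both groups overlapped. Fkbp5 and Zbtb16 were also below the same Sham_Saline samples in both sciatic injury groups. Fkbp5 was at -0.50 in SNA_Saline and -0.61 in SNA_NAC, and Zbtb16 at -1.63 and -1.81, beside -1.77 under peroxide. Sgk1 differed by 0.09 and -0.03 there. None of these values was called with edgeR. In SNA_Saline 2 and in SNA_NAC 3 of the 15 were lower at the unadjusted threshold, against 12.3% and 16.1% of all genes. In the sciatic against the spinal groups 3 of 15 fell, Fkbp5 (-0.45, edgeR adjusted p = 0.0465), Tsc22d3 (-0.37, adjusted p = 0.0161) and Pdk4, and Cdkn1a rose, where 145 of all 15730 genes were called lower and 430 higher. The sciatic side includes the injured and the peroxide groups. Between the surgical controls Fkbp5 had a higher mean in Sham_Saline than in LAM (75.2 and 66.7 CPM). Tsc22d3 (284 and 341 CPM) and Pdk4 (16.7 and 20.5 CPM) had a lower one.

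Of 14 symbols listed for genes induced by neuronal activity and CREB, 12 were in the table. Of these, 3 of 12 (25%) were called higher in SNA_Saline against Sham_Saline, against 2.16% of all genes. They were Crem, which encodes cAMP-responsive activators and repressors (0.98, SE 0.18, edgeR adjusted p = 0.00498), Dusp1 and Btg2; Dusp1 is also on the glucocorticoid list, where Cdkn1a was the other gene called higher. Crem went from 12.9, 12.3 and 14.7 CPM to 27.0, 28.1 and 23.5 CPM. Per1 in the same samples differed by -0.24 (95% interval -0.85 to 0.36), and by 0.35 with the offsets (edgeR adjusted p = 0.198). Fos (0.45) and Sik1 (0.37) did not pass there, with edgeR adjusted p of 0.32 and 0.247. Of the 12, 4 had values below 0; the lowest, named after their values were seen, were Junb (-1.21, edgeR adjusted p = 0.178) and Ier2 (-0.84, adjusted p = 0.239). In the sciatic against the spinal groups 5 of 12 rose, Crem (0.57), Fos (0.82), Egr1, Btg2 and Arc, beside the same 430 of all genes. The sciatic side includes the injured groups, and Crem had a mean of 13.3 CPM in Sham_Saline and 13.7 in LAM.

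Among 12990 genes with a mean count of at least 50, the 5 whose log2 CPM over 18 samples was most like that of Dbp were Tef (r = 0.81), Sh3bgr (0.79), Bub3 (0.79), Ciart (0.78) and Cmss1 (0.77), so that 2 of the 5 were on the related clock list. For Per1 they were Tmem120b, Wnk4, Usp2, Notch3 and AI846148, with r of 0.85 to 0.86, and for Arntl they were Man2c1os (0.80), Cpne2, Fzd8, Fam212b and Zfhx2. These are the highest of many values over libraries that share differences in GC slope.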

How the data were processed

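RNA from 18 pooled samples (6 groups of 3) was sequenced with a stranded mRNA kit, single end, 6 libraries to a lane on 3 lanes, per the labels' protocols. The authors deposited raw read counts for 15730 genes, and FPKM values that they had scaled by feature length and library size. The submitters' processing notes list mm10, TopHat2 2.0.12, HTSeq 0.6.0 and edgeR 3.8.6, without roles; the use of strand in counting is not given in the sources used here. Genes were matched by symbol, and positions, GC share and length came from GENCODE on the same build (15648 genes). Promoter sequences are those of RefSeq.

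A quasi-likelihood test of the counts was run over all 18 samples together (R 4.3.3, edgeR 4.0.16, TMM factors). Its low-count filter, filterByExpr, kept every gene; adjustment was by Benjamini-Hochberg over the whole table, with calls at 0.05. Biological variation, as edgeR's common coefficient, was 17.4%. The SE of a log2 fold change was taken from the change and the F statistic. Log2 CPM used a prior count of 2, and correlations used 1e+05 permutations. Alternatives were DESeq2 1.42.0, RLE factors, the filter set to 10 counts in each library or left off, a fit of the compared groups alone, a replicate block, calls at 0.10, limma 3.58.1 on log2(FPKM + 1) and log2(FPKM + 0.1), offsets for GC share and length (splines of 5 degrees of freedom) with and without the block, leaving out each sample and, chosen after seeing the data, leaving out Sham_Saline 2 and Sham_H202 3 together. The scripts were tested on simulated data.

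The clock genes and all lists were chosen with earlier results of these data known. The text names all 10 clock genes, related genes called in a contrast plus 10 preset ones, preset members of the 2 response lists with their called genes, and for Dbp, Arntl and Per1 the 5 most similar genes. Single values of 3 against 3 samples cannot reach a permutation p below 0.1. The labels do not say that replicates were separate experiments beyond being pools of 2 mice, so p-values measure the spread between these pools. Replicate numbers equal the sequencing lane in the labels, and the samples of a number come from different mice. Of the 45 correlations between same-numbered samples of 2 groups, 15 were over 0.1 (mean -0.031); for Sham_Saline with LAM all 3 were (0.24, 0.42 and 0.27). The blocked values are given where they move a count of calls by over 1.5 times. Replicates of each group differed by more than counting noise (chi-square per degree of freedom at least 3.98 over 18 pairs). The reads carry no molecular identifiers and so do not count molecules independently. Of the other marker lists, the lowest and highest summed CPM of any library were as follows. Satellite glia markers ran from 1522 to 2566 CPM, Schwann cell markers from 6364 to 10468, macrophage from 50.6 to 73.9, fat cell from 11.8 to 50.9, red blood cell from 164 to 840, neutrophil from 197 to 499, endothelial from 50.7 to 70.2 and fibroblast from 737 to 1327. No marker in the table was at 0 in any library.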

Additional observations from a re-analysis of the deposited data

Results flagged for a closer look

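Bhlhe41, a repressor that acts at E-boxes, responded differently to the 2 injuries. Its log2 change after sciatic nerve injury (1.02 against the sham operation) exceeded its change after dorsal column injury (-0.26 against laminectomy) by 1.28 (SE 0.17, 95% interval 0.91 to 1.64). The difference itself was tested and passed (edgeR quasi-likelihood test, adjusted p = 0.00101), and all 3 sciatic injury samples lay above all other control and dorsal column samples. It ran from 1.12 to 1.38 when single samples were left out and passed under all 30 alternatives.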

How the results depend on the processing

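The count of clock genes called was 0 in every contrast with edgeR, and it stayed 0 under all alternatives in SNA_NAC against SNA_Saline, Sham_H202 against Sham_Saline, DCA against LAM and the lane test. DESeq2 called 1 (Nr1d1) in SNA_NAC against Sham_Saline, 1 (Nr1d2) in Sham_Saline against LAM, 1 (Nr1d1) in the difference between injuries and 3 among the 6 groups. The offsets for GC share and length called 1 (Cry2) in each sciatic injury contrast against Sham_Saline, 2 (Clock and Nr1d2) in sciatic against spinal groups and 2 (Per1 and Cry2) among the 6 groups. With the replicate block added to these offsets the counts were 2, 1, 3 and 3, with Dbp the added gene in each count that rose. At an adjusted p under 0.10 the difference between injuries had 1 (Nr1d1), and without Sham_Saline 2 and Sham_H202 3 the test among groups had 1 (Nr1d1).

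Leaving out single samples gave 0 to 2 called clock genes in SNA_Saline against Sham_Saline, 0 to 3 in SNA_NAC against Sham_Saline, 0 to 4 in Sham_Saline against LAM, 0 to 3 in the difference between injuries and 0 to 2 among groups. Each maximum came without Sham_Saline 1, and 1 gene (Per1) was called among groups without Sham_H202 2. Over all genes, calls without Sham_Saline 1 went from 430 to 2548, from 522 to 5861, from 11 to 5009, from 254 to 4600 and from 619 to 2152 in the same order; the cause was not tested. Sciatic against spinal groups ran from 341 to 780. Over all genes the calls in SNA_Saline against Sham_Saline were 863 with DESeq2, 65 with only the groups compared, 822 at 0.10, 1083 with the offsets and 963 with offsets and block. In SNA_NAC against Sham_Saline they were 1222, 68, 1288, 1162 and 1098, and 279 without the 2 libraries at the ends of GC slope. In Sham_Saline against LAM they were 1083 with DESeq2, 4 with at least 10 counts everywhere, 1 with only the groups compared, 6 with the block, 5 with log2(FPKM + 1), 18 with the offsets, 21 with offsets and block and 7 without the GC ends. The difference between injuries had 1638 with DESeq2, 151 with only the groups compared, 118 with the block, 2398 at 0.10, 718 with the offsets and 621 with offsets and block. Sciatic against spinal groups (575) had 878 at 0.10 and without the GC ends, 1408 with the offsets and 1294 with offsets and block, and the test among groups had 1384 with DESeq2, 1445 and 1355. DESeq2 called 4 under peroxide, 2 in DCA against LAM (1 with offsets and block) and 14 between lanes (0 with at least 10 counts everywhere).

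Among clock gene values with an unadjusted p under 0.05, those that reversed were Nr1d1 in Sham_H202 against Sham_Saline without the 2 libraries at the ends of GC slope (0.021) and Per1 in Sham_Saline against LAM with the offsets (-0.0088) and with offsets and block (-0.013). Of the values above that threshold the offsets turned the sign of 19, and the 3 that moved farthest were Per1 (-0.57 to 0.39) and Cry2 (-0.28 to 0.33) in the difference between injuries and Dbp in SNA_NAC against Sham_Saline (-0.56 to 0.19). The correlation of Arntl and Dbp ran from -0.74 to -0.63 over single samples left out. Nfil3 lost its call against Sham_Saline with only the groups compared (adjusted p = 0.0757 and 0.0569). The replicate block alone changed no clock gene call, and it moved the calls over all genes by more than 1.5 times only in Sham_Saline against LAM and in the difference between injuries. Arntl, at 18 to 209 counts, is limited most by depth.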
